A study of Mus musculus with 24 samples.

Results

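The 3 Homer genes, Homer1, Homer2 and Homer3, encode the Homer family of postsynaptic scaffold proteins. Every probe set that the array annotation assigned to 1 of these symbols was taken, which gave 10 probe sets of the 45037 tested: 6 for Homer1, 3 for Homer2 and 1 for Homer3. No filter on low values was used, so all 10 entered every comparison. Expression was measured on 24 arrays. The RNA came from brains of male mice, 12 weeks of age, which had been kept awake by gentle handling for the first 6 h of the light period or left undisturbed over the same hours (controls). There were 6 sleep-deprived and 6 control arrays of a pull-down, 4 arrays of its supernatant, and 4 sleep-deprived and 4 control arrays of whole brain. The labels call the pull-down RNA that of Homer1a-expressing cells and the supernatant that of Homer1a-negative cells. The pull-down followed perfusion with formaldehyde and used beads against the FLAG peptide, in the mRNA-tagging method, in which a tagged poly(A)-binding protein expressed in chosen cells is used to recover their messenger RNA. The strain of the mice, the protein that carried the tag and the promoter that drove it are not given in the sources used here. Animal counts in the design text match 1 animal per pull-down and whole-brain array, so each p-value measures the spread between animals and arrays together, and it is not stated which animals the supernatants came from. Whole-brain RNA was total RNA with no pull-down, and amplification before hybridisation is stated for the immunoprecipitated RNA. For supernatant 13 the title and the source field name opposite conditions, and the supernatants were therefore kept as 1 group of 4 with no test of sleep deprivation. Both fields name supernatants 14 and 15 sleep-deprived and supernatant 16 control, so this group mixes conditions in unequal numbers, and its condition and its extract cannot be fully told apart in comparisons with it. The number after a group is that of the array's title, and all values below are log2 RMA intensities as deposited, or differences between them.

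Homer proteins bind short proline-rich motifs in group I metabotropic glutamate receptors, Shank scaffolds and the intracellular calcium channels of the IP3 receptor and ryanodine receptor families. The long forms carry a coiled-coil tail through which they join into tetramers and so link receptors to calcium stores. Homer1a is a short form of Homer1 without this tail, made as an immediate early transcript when neurons are active, and it is known to uncouple the long forms from their partners and to rise in the brain with time awake. Which Homer1 transcript, short or long, each probe set measures was not stated in the sources used here. Levels were therefore followed within each probe set across groups, and the levels of different probe sets were not set against each other, because probes differ in brightness.

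The stretches of genome just upstream of the Homer starts are shown as background. Homer1a is known as a target of CREB, the factor that binds the cAMP response element. The 250 bases before each annotated start were read from RefSeq (mouse build GRCm38.p6), 5′ to 3′ on the strand of the gene. Homer1 lies at chr13:93303507-93303756 on the plus strand, Homer2 at chr7:81706926-81707175 on the minus strand and Homer3 at chr8:70282749-70282998 on the plus strand. Capitals mark the half-site of the cAMP response element, TGACG, on either strand.
Homer1: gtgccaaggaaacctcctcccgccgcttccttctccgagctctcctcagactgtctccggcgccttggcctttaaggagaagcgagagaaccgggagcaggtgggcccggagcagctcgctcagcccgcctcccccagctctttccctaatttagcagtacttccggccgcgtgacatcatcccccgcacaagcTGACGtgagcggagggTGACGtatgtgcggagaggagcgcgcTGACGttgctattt
Homer2: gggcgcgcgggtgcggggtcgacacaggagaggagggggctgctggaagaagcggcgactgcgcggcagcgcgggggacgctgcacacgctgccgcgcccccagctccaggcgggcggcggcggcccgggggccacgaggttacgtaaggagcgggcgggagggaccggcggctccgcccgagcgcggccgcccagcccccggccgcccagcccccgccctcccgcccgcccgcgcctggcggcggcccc
Homer3: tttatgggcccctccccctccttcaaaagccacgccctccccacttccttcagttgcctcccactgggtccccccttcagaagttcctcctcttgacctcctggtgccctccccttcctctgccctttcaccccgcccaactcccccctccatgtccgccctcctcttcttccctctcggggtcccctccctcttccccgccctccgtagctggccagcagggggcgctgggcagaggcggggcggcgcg
The Homer1 window held 3 half-sites, whose first bases lay 56, 40 and 14 bases before the start, and no full element TGACGTCA. Both the Homer2 and the Homer3 window held 0 half-sites. Of 32851 such windows of 27025 genes, 17.8% held at least 1 half-site, 0.688% held 3 or more and 1.55% held the full element, overlaps counted on both strands. One of the half-sites in the Homer1 window extends to the longer form TGACGTNA, present in 2.52% of windows. An upstream window of a second annotated Homer1 start, chr13:93307784-93308033, and one of a second Homer2 start, chr7:81692966-81693215, held 0 half-sites. None of the 5 windows held the EGR site GCGTGGGCG (0.536% of windows), a MEF2 site (2.92%), an SRF CArG box (1.47%) or the E-box CACGTG (6.02%). These are matches of letters in a window and not measured binding. Their part in any response to sleep deprivation was not tested, and Homer1 was not shown to respond more than Homer2 or Homer3 (below).

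The extracts differed as wholes. The median of an array's log2 values averaged 4.91 ± 0.33 (SD, n = 6) in pull-down after sleep deprivation and 5.04 ± 0.44 (n = 6) in pull-down control, against 6.15 in supernatant and 6.09 and 6.17 in the whole-brain groups. The 18S ribosomal RNA control read 8.49 and 8.59 in the pull-down groups, 14.29 in supernatant and 13.83 and 13.86 in the whole-brain groups. The 3′ minus 5′ difference of Gapdh, which grows as copies stop short of the 5′ end, was 5.01 and 4.84 in the pull-down groups, 2.43 in supernatant and 2.86 and 2.65 in whole brain. Sleep-deprived pull-down 1 and control pull-down 3 had the most 18S signal of their extract, and pull-down control 11 had the lowest correlation with its extract's mean, r = 0.913 across probe sets. Of the defining markers of other brain cells, all 8 of microglia and all 7 of endothelium were lower in undisturbed pull-down than in whole brain at an adjusted p under 0.05, as were 6 of 7 of oligodendrocytes and 6 of 8 of astrocytes, where 66.5% of all probe sets were lower and 6.41% higher. After quantile normalization these counts were 5, 6, 7 and 6, and after centring of arrays 4, 5, 4 and 2. Among all 45037 probe sets, 9212 were lower and 10081 higher after quantile normalization, and 6134 and 17138 after centring. As deposited and after quantile normalization 1 astrocyte marker was higher. After centring, 2 astrocyte markers, 1 of oligodendrocytes and 1 of endothelium were higher. Of 6 striatal neuron markers 5 were lower and 1 higher as deposited, 3 and 1 after quantile normalization, and 1 and 1 after centring. As deposited, 3 of 7 excitatory neuron markers were lower and 2 higher. For 8 interneuron markers these counts were 3 and 1, and for 7 cerebellar neuron markers 2 and 2. After quantile normalization 2 excitatory markers were lower and 3 higher, 3 and 4 of interneurons, and 1 and 4 of cerebellar neurons. After centring the counts were 1 and 4, 1 and 5, and 1 and 4 in these lists. Each marker was read from 1 probe set, the brightest of its gene over the 24 arrays. All probe sets were not chosen so, and their shares are therefore not a like reference. Of 10 pan-neuronal markers, 2 were higher and 4 lower as deposited and after quantile normalization, and 4 higher and 1 lower after centring, where their median turned from −0.32 to 0.82.

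Homer1 probe set 1436387_at was highest in pull-down after sleep deprivation and lowest in supernatant. In pull-down after sleep deprivation its log2 level had a lowest value of 10.74, a median of 11.04 and a highest of 11.56, and in pull-down control 8.83, 10.09 and 10.28. In whole brain the 4 sleep-deprived arrays read 9.49, 9.38, 9.59 and 9.51 (arrays 18 to 21) and the 4 controls 8.96, 8.62, 8.63 and 8.36 (arrays 22 to 25). The 4 supernatants read 7.23, 8.91, 8.62 and 7.60 (arrays 13 to 16). The order of means was therefore pull-down after sleep deprivation (11.10), pull-down control (9.89), sleep-deprived whole brain (9.49), control whole brain (8.65) and supernatant (8.09). The first of these groups lay wholly above the second, and sleep-deprived whole brain lay wholly above control whole brain. Pull-down control overlapped with sleep-deprived whole brain, and control whole brain overlapped with supernatant, so those neighbours are not ordered beyond their spread.

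**Figure D1:**
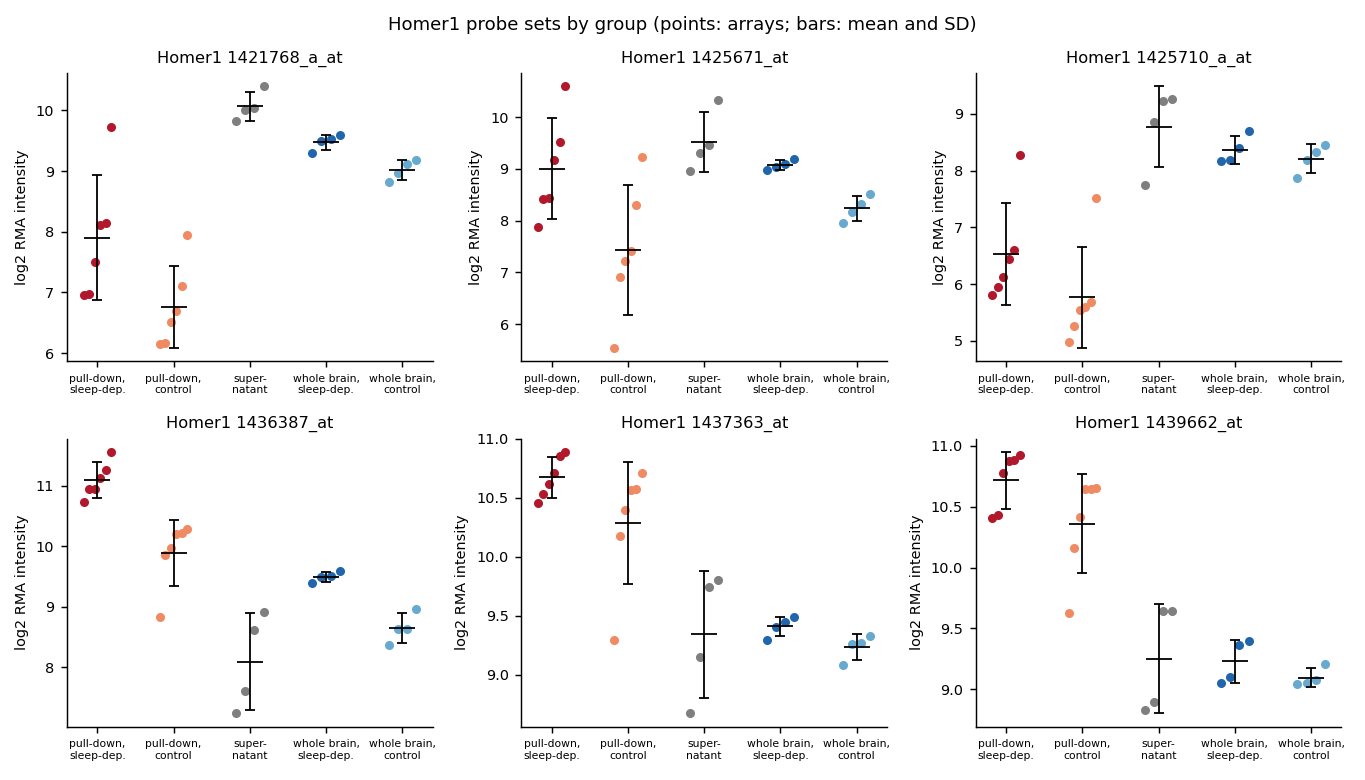
Log2 RMA intensity (vertical axes) of the 6 Homer1 probe sets in the 5 groups, with 1 point per array and bars for the mean and SD; each panel has its own scale. Probe set 1436387_at averages 11.10 in pull-down after sleep deprivation and 8.09 in supernatant, whereas 1421768_a_at averages 7.90 and 10.07 in the same groups.

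Probe sets 1437363_at and 1439662_at had their highest means in the pull-down groups, and 1421768_a_at and 1425710_a_at had their lowest there. The means of 1437363_at were 10.68 ± 0.17 and 10.29 ± 0.52 (SD, n = 6) in sleep-deprived and control pull-down, 9.34 ± 0.54 (n = 4) in supernatant, and 9.41 ± 0.08 and 9.24 ± 0.11 (n = 4) in sleep-deprived and control whole brain. Those of 1439662_at were 10.72 ± 0.24, 10.36 ± 0.41, 9.25 ± 0.45, 9.23 ± 0.18 and 9.09 ± 0.08 in the same sequence of groups. For both probe sets the 3 groups outside the pull-down overlapped with each other.

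For 1421768_a_at the same sequence ran 7.90 ± 1.03, 6.76 ± 0.68, 10.07 ± 0.24, 9.48 ± 0.12 and 9.02 ± 0.16, so that supernatant was the highest group and lay wholly above both whole-brain groups. For 1425710_a_at it ran 6.53 ± 0.90, 5.77 ± 0.89, 8.77 ± 0.71, 8.36 ± 0.24 and 8.21 ± 0.26, with supernatant and both whole-brain groups overlapping. The remaining probe set, 1425671_at, ran 9.004 ± 0.974, 7.44 ± 1.26, 9.51 ± 0.58, 9.07 ± 0.10 and 8.24 ± 0.24. Its pull-down arrays spread over several log2 units, from 5.54 in control 11 to 10.60 in sleep-deprived 1, and overlapped with all other groups.

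Over all 24 arrays the probe sets other than 1425671_at fell by their correlations into the same pair of sets. The Pearson r was 0.971 between 1437363_at and 1439662_at, 0.861 and 0.833 between 1436387_at and each of them, and 0.935 between 1421768_a_at and 1425710_a_at. Between the sets it was negative, from −0.542 (1421768_a_at with 1437363_at) to −0.674 (1425710_a_at with 1439662_at). Probe set 1425671_at had an r of 0.771 with 1421768_a_at and 0.638 with 1425710_a_at. With 1436387_at, 1437363_at and 1439662_at its r was −0.012, 0.057 and −0.025. When each of the 20 pull-down and whole-brain arrays was taken as a deviation from the mean of its extract, these r values were all above 0 and ran from 0.185 (1425710_a_at with 1436387_at) to 0.914 (1421768_a_at with 1425671_at) over all 15 pairs. The arrays share their extract, amplification and scaling, so these r values describe the arrays and carry no test.

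In whole brain, sleep deprivation raised Homer1 at 2 of its 6 probe sets. Probe set 1436387_at was higher by 0.85 ± 0.13 log2 units (SE, n = 4 and 4; adjusted p = 0.0407, limma with Benjamini-Hochberg adjustment over all probe sets). Probe set 1425671_at was higher by 0.84 ± 0.13 (adjusted p = 0.0408), with 9.09, 8.97, 9.20 and 9.04 in sleep-deprived arrays 18 to 21 and 8.52, 8.32, 7.95 and 8.16 in control arrays 22 to 25. In both probe sets all 4 sleep-deprived arrays lay above all 4 controls. Of all probe sets 0.0466% passed this test (21 of 45037), 0.0355% as higher and 0.0111% as lower. The 2 Homer1 probe sets ranked 18 and 19 by p, and 18 and 20 from the highest difference.

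The other 4 Homer1 probe sets did not pass in whole brain. Probe set 1421768_a_at differed by 0.46 ± 0.12 (adjusted p = 0.254), with 9.59, 9.52, 9.49 and 9.30 after sleep deprivation and 8.97, 9.18, 8.81 and 9.11 in controls, which did not overlap. Groups that did not overlap in this direction were found at 1.75% of all probe sets, and in the other direction at 4.25%. Probe set 1437363_at differed by 0.17 ± 0.11, 1425710_a_at by 0.15 ± 0.15 and 1439662_at by 0.13 ± 0.12, with adjusted p of 0.566, 0.736 and 0.692. Their 95% intervals reached up to 0.40, 0.48 and 0.38.

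The whole-brain calls rested on all but 1 of the 8 arrays. Both were lost when any of sleep-deprived 18, 19, 20 or 21 or controls 23, 24 or 25 was left out, with adjusted p from 0.0898 to 0.156, and both were kept without control 22. The differences themselves ranged only from 0.75 to 0.95 for 1436387_at and from 0.74 to 0.93 for 1425671_at over these 8 fits. In 1 fit of all 24 arrays, where the more variable pull-down and supernatant arrays share the error estimate, both lost the call (adjusted p = 1.00).

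In the pull-down, no Homer probe set passed the test of sleep deprivation, and neither did any other: 0% of the 45037 passed at an adjusted p under 0.05 by limma, and 430 had an unadjusted p under 0.05. Probe set 1436387_at was higher by 1.20 ± 0.27 (SE, n = 6 and 6; unadjusted p = 0.000303, adjusted p = 1.00, limma). Its 6 sleep-deprived arrays (10.74 to 11.56) all lay above its 6 controls (8.83 to 10.28). Groups that did not overlap in this direction were found at 18 probe sets, 0.04% of all, and in the other direction at 0.0178%. Adjusted only over the 3358 probe sets enriched in pull-down over supernatant and over whole brain, as the study's own design adjusts, its p was 0.203.

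The differences of 1425671_at and 1421768_a_at in the pull-down were as large, with wider spread. Probe set 1425671_at had a lowest, median and highest value of 7.88, 8.81 and 10.60 after sleep deprivation and of 5.54, 7.32 and 9.23 in controls, a difference of 1.57 ± 0.52 (unadjusted p = 0.00750, limma). For 1421768_a_at the values were 6.95, 7.81 and 9.72 against 6.15, 6.61 and 7.95, a difference of 1.14 ± 0.42 (unadjusted p = 0.0147, limma). In both the groups overlapped, since pull-down controls 3 and 4 lay within the sleep-deprived range. By size of difference, 1425671_at ranked 3, 1436387_at ranked 8 and 1421768_a_at ranked 12 from the highest of all probe sets.

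Smaller differences were measured at the other Homer1 probe sets: 0.76 ± 0.43 at 1425710_a_at, 0.39 ± 0.26 at 1437363_at and 0.36 ± 0.24 at 1439662_at. The 95% intervals of these 3 included 0. At each of the 6 Homer1 probe sets, all 6 sleep-deprived pull-down arrays lay above the mean of the controls. That mean was lowered by control 11 at 1437363_at (9.29) and 1439662_at (9.63). Against the control medians there, 10.48 and 10.53, sleep-deprived 10 was below at 1437363_at (10.46). At 1439662_at sleep-deprived 10 and 12 were below (10.43 and 10.41). How many of all probe sets show this pattern was not counted. Leaving out sleep-deprived 1 and controls 3 and 11 together, the arrays that stood apart, gave 1.00 at 1436387_at, 1.22 at 1425671_at, 0.92 at 1421768_a_at, 0.83 at 1425710_a_at and 0.24 at both 1437363_at and 1439662_at, and 0 Homer probe sets passed. This choice of arrays was made after the data were seen. In a bulk extract, more RNA per cell and more cells of a type cannot be told apart.

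The response of Homer1 was not shown to differ between pull-down and whole brain. The difference between the effects was 0.36 ± 0.35 at 1436387_at, 0.73 ± 0.71 at 1425671_at and 0.68 ± 0.57 at 1421768_a_at (adjusted p = 1.00 for each, limma, 20 arrays). The 95% interval at 1436387_at ran from −0.36 to 1.07, which leaves room for a smaller as well as a larger response in the pull-down, and after quantile normalization the value was −0.00080. No probe set of any gene passed this test (0% of 45037; 152 had an unadjusted p under 0.05).

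**Figure D2:**
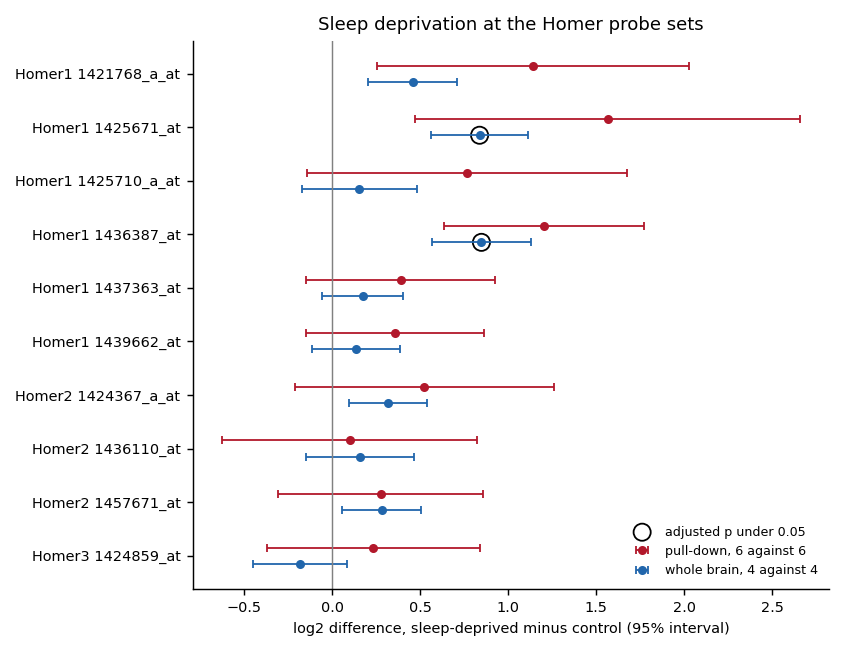
Log2 difference, sleep-deprived minus control (horizontal axis), at the 10 Homer probe sets in pull-down (6 against 6 arrays) and whole brain (4 against 4); lines are 95% intervals and circles mark an adjusted p under 0.05. Probe sets 1436387_at and 1425671_at stand at 0.85 and 0.84 in whole brain and at 1.20 and 1.57 in pull-down.

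The Homer1 probe sets did not respond equally to sleep deprivation in the pull-down. To take out offsets that touch a whole array, the difference between 2 Homer1 probe sets was taken within each array and compared between conditions with an exact two-sided permutation test. All 15 pairs were tested in each of the pull-down and whole brain, with Benjamini-Hochberg adjustment over the 30 tests. In the pull-down, 1436387_at minus 1437363_at had a lowest, median and highest value of 0.03, 0.41 and 0.72 after sleep deprivation and of −0.86, −0.36 and −0.12 in controls. The groups did not overlap, and the shift was 0.81 ± 0.15 (SE, n = 6 and 6; exact p = 0.00216, the smallest that 6 against 6 allows; adjusted p = 0.0325). For 1436387_at minus 1439662_at the values were −0.04, 0.45 and 0.64 against −0.81, −0.44 and −0.14, a shift of 0.85 ± 0.15 with the same exact permutation p. Between 1437363_at and 1439662_at the shift was 0.03 ± 0.09 (exact permutation p = 0.762).

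In whole brain the same pairs shifted the same way. In sleep-deprived arrays 18 to 21, 1436387_at minus 1437363_at read 0.04, −0.11, 0.29 and 0.11, and in controls 22 to 25 −0.37, −0.64, −0.45 and −0.91, a shift of 0.67 ± 0.15. The shift of 1436387_at against 1439662_at was 0.71 ± 0.18. Probe set 1425671_at shifted by 0.68, 0.66 and 0.70 against 1425710_a_at, 1437363_at and 1439662_at, and 1425710_a_at against 1436387_at by −0.69. These 6 pairs did not overlap between conditions and had an exact permutation p of 0.0286, the smallest that 4 against 4 allows, and an adjusted p of 0.107. Probe sets 1425671_at and 1436387_at, the pair that rose, shifted against each other by −0.01 ± 0.11 (exact permutation p = 0.943).

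Of the 15 pairs, 2 passed the adjusted threshold in the pull-down and 0 in whole brain; 4 and 6 had an exact permutation p under 0.05. Without any 1 of the 6 sleep-deprived pull-down arrays both calls stayed, and without any 1 of the 6 controls both were lost (adjusted p = 0.0649), while the shifts stayed between 0.72 and 0.91. After quantile normalization both pull-down calls stood, with a shift of 0.72 for 1436387_at against 1437363_at. Pairs of other probe sets were not counted, so no share over all pairs stands beside these counts. Singly, 1.75% of all probe sets were apart as higher and 4.25% as lower in whole brain, and 0.04% and 0.0178% in pull-down. The 15 pairs come from the same 6 probe sets and arrays, so they are not separate results. The within-array values show unequal change and not which transcript any probe set reads.

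**Figure D3:**
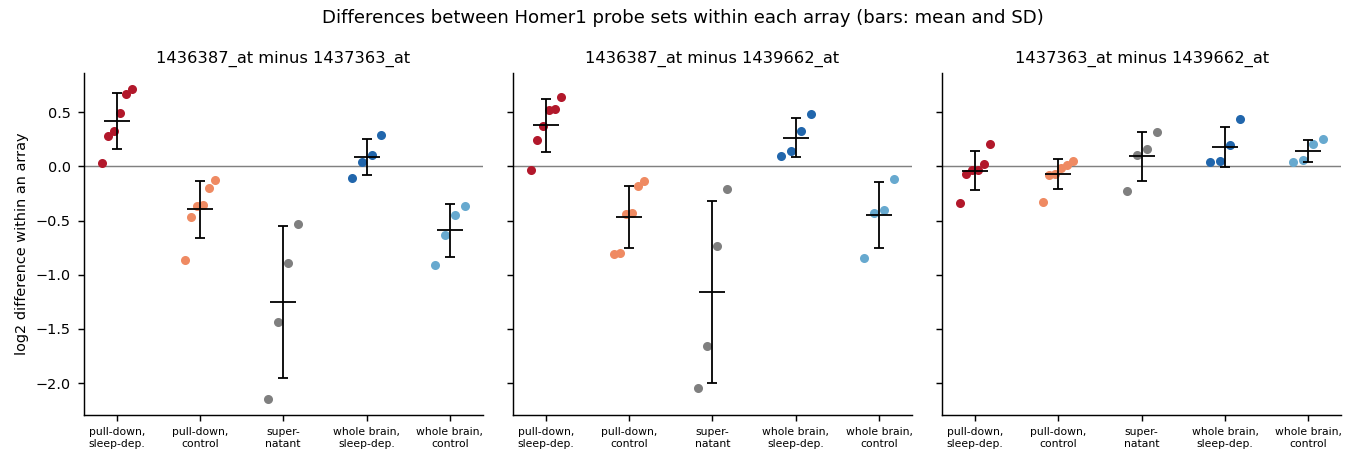
Log2 difference between 2 Homer1 probe sets within each array (vertical axis, shared) by group, with 1 point per array and bars for the mean and SD. For 1436387_at minus 1437363_at the sleep-deprived pull-down arrays lie from 0.03 to 0.72 and their controls from −0.86 to −0.12, whereas for 1437363_at minus 1439662_at the groups overlap.

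The comparison of pull-down with whole brain split the Homer1 probe sets. The cells sampled and the handling of the RNA differ together between these extracts, so the comparison cannot tell them apart. In undisturbed animals, 1436387_at was higher in pull-down by 1.25 ± 0.29 log2 units (SE, n = 6 and 4), 1439662_at by 1.26 ± 0.22 and 1437363_at by 1.05 ± 0.24. Their adjusted p were 0.000509, 2.09e-05 and 0.000451 in limma's fit of all 24 arrays. Probe set 1425710_a_at was lower (−2.44 ± 0.42, adjusted p = 1.71e-05), and so was 1421768_a_at (−2.26 ± 0.38, adjusted p = 1.30e-05). Probe set 1425671_at, at −0.80 ± 0.48, did not pass (adjusted p = 0.131). Of all probe sets 72.9% passed, 6.41% as higher and 66.5% as lower, and the median over all was −0.80.

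After sleep deprivation the split was the same. Probe sets 1436387_at, 1439662_at and 1437363_at exceeded whole brain by 1.60, 1.49 and 1.27, and 1421768_a_at and 1425710_a_at lower at −1.57 and −1.83, all at an adjusted p under 0.05 (limma). Probe set 1425671_at read −0.07 ± 0.48. Among all probe sets 69.5% passed, 6.74% as higher and 62.7% as lower. The pull-down arrays are shared with the sleep deprivation comparisons above.

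Against supernatant, too, 3 Homer1 probe sets were higher in pull-down and 3 lower. The difference at 1436387_at was 2.40 ± 0.26 (n = 12 and 4), that at 1439662_at 1.29 ± 0.20 and that at 1437363_at 1.14 ± 0.21. The other 3 were lower: 1421768_a_at at −2.74 ± 0.34, 1425710_a_at at −2.62 ± 0.37 and 1425671_at at −1.29 ± 0.43. All 6 passed (limma, adjusted p of at most 0.00836), where 78.6% of all probe sets passed, 11.2% as higher and 67.4% as lower. Averaged over both conditions, 1436387_at, 1437363_at and 1439662_at passed as higher against supernatant and against whole brain, as did 7.46% of all probe sets (65.8% passed as lower against both). After centring 1425671_at read −0.12 against supernatant and did not pass, nor did it without supernatant 14 (−1.02, adjusted p = 0.0549), and the other 5 kept their direction and call under quantile normalization and centring. Whole brain, too, was above supernatant at 1436387_at, by 0.98 ± 0.27 (adjusted p = 0.0167; 10.9% of all probe sets passed, 8.89% as higher and 2.01% as lower), and at no other Homer1 probe set. This call was lost after centring (1.00, adjusted p = 0.0896) and without supernatant 13 (0.69, adjusted p = 0.155) or 16 (0.82, adjusted p = 0.0940).

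The signs of 5 Homer1 probe sets held under other scalings of the arrays. As deposited, 8.8% of the probe sets called between undisturbed pull-down and whole brain were higher, after quantile normalization 52.3% and after centring on array medians 73.6%, and the median over all probe sets moved from −0.80 to 0.09 and 0.34. Probe sets 1436387_at, 1437363_at and 1439662_at stayed higher (1.61, 1.26 and 1.49 after quantile normalization; 2.38, 2.19 and 2.40 after centring), and 1421768_a_at and 1425710_a_at stayed lower (−1.65 and −1.61; −1.12 and −1.31), all past the threshold. Probe set 1425671_at turned from −0.80 to 0.34 after centring and passed as lower with array weights, without pull-down control 3 (−1.16) and without the arrays that stood apart (−0.77). After sleep deprivation, centring took 1421768_a_at and 1425710_a_at below the threshold (−0.40 and −0.66).

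**Figure D4:**
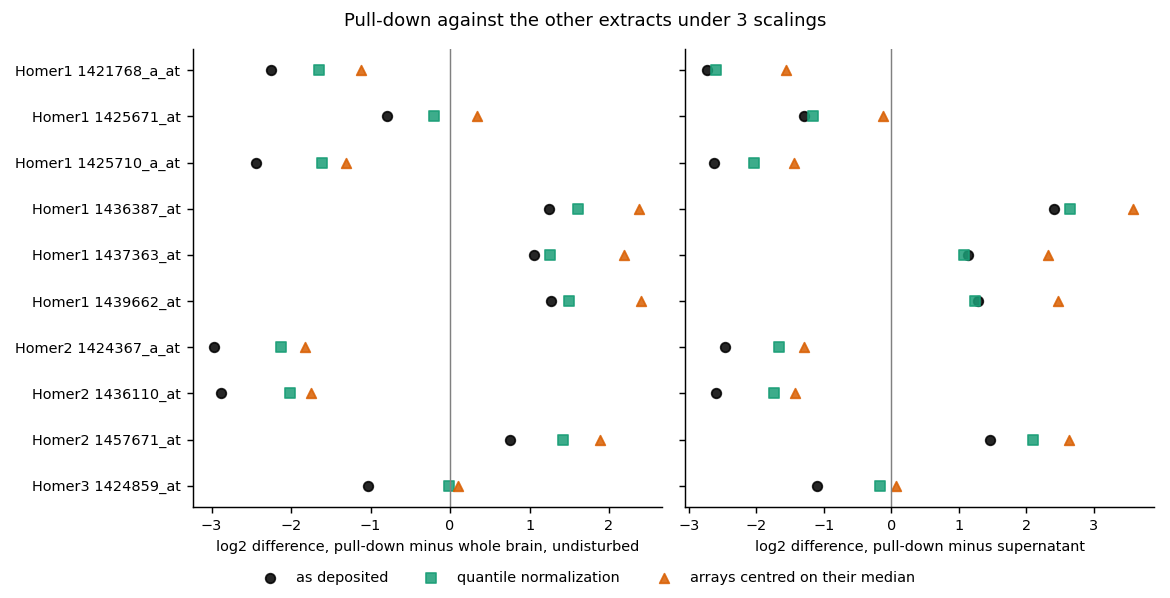
Log2 difference, pull-down minus undisturbed whole brain (left) and pull-down minus supernatant (right), at the 10 Homer probe sets under 3 scalings of the arrays. Homer1 1436387_at stays above 0 (1.25, 1.61 and 2.38 on the left) and 1421768_a_at below 0 (−2.26, −1.65 and −1.12). Probe set 1425671_at changes side on the left only, and Homer3 on both.

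Differences within arrays, in which an offset of a whole array cancels, split the probe sets too. Between undisturbed pull-down and whole brain, 12 of the 15 pairs of Homer1 probe sets shifted at an adjusted p under 0.05 (exact permutation test, adjusted over 15 pairs), and in 8 the groups did not overlap. Pairs of other probe sets were not counted, and singly 72.9% of all probe sets differed between these extracts. The 15 pairs come from the same 6 probe sets and arrays as the split above, so their count is not separate support for it. The shift of 1425710_a_at against 1439662_at was −3.71 ± 0.39 and that of 1421768_a_at against 1436387_at −3.50 ± 0.35, each with the smallest exact permutation p that 6 against 4 allows, 0.00476. The 3 pairs that did not pass were 1421768_a_at with 1425710_a_at (0.18 ± 0.28), 1436387_at with 1437363_at (0.19 ± 0.16) and 1436387_at with 1439662_at (−0.02 ± 0.19). Leaving out 1 array at a time gave 8 to 12 pairs. The 3′ minus 5′ difference of Gapdh differed between the same extracts (4.84 against 2.65), and its part in the split was not tested.

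Homer2, another scaffold of the family with a coiled-coil tail in its long form, split between its probe sets as well. Probe set 1457671_at read 8.44, 8.93 and 9.58 (lowest, median, highest) in sleep-deprived and 7.78, 8.81 and 9.12 in control pull-down, against 7.80 to 7.995 in control whole brain, 8.10 to 8.31 in sleep-deprived whole brain and 6.87 to 7.75 in supernatant. Its undisturbed pull-down exceeded whole brain by 0.75 ± 0.24 (adjusted p = 0.00825, limma), and the pull-down exceeded supernatant by 1.46 ± 0.22. Probe sets 1424367_a_at and 1436110_at were lower than whole brain, at −2.97 ± 0.30 and −2.89 ± 0.31 (adjusted p = 1.32e-08 and 2.32e-08). Their means in pull-down control, 5.26 and 5.44, lay near the array medians of that group (5.04 ± 0.44), as did that of Homer1 1425710_a_at (5.77), and no detection call was used here, so these pull-down values are not shown to be above background and the size of such differences is uncertain. The pull-down arrays of both, at most 6.89 and 6.34, lay below all arrays of the other extracts, which read at least 7.75 and 7.88.

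Sleep deprivation passed the test at no Homer2 probe set. In whole brain, 1424367_a_at read 8.53, 8.53, 8.50 and 8.60 in arrays 18 to 21 and 8.23, 8.20, 8.37 and 8.11 in controls 22 to 25, a difference of 0.32 ± 0.10 (adjusted p = 0.341, limma). Probe set 1457671_at differed by 0.28 ± 0.10 (adjusted p = 0.381) and 1436110_at by 0.16 ± 0.14. In the first of these 3 and in 1457671_at the groups did not overlap, which held in the higher direction for 1.75% of all probe sets. In the pull-down the Homer2 differences were 0.52 ± 0.35, 0.28 ± 0.28 and 0.10 ± 0.35 for 1424367_a_at, 1457671_at and 1436110_at, and the groups overlapped.

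Homer3, the third scaffold of the family, had 1 probe set, 1424859_at, which was lower in pull-down as deposited and not under other scalings. It read 5.88, 6.32 and 7.51 in sleep-deprived and 5.71, 6.16 and 6.66 in control pull-down, 7.18, 6.95, 7.10 and 7.04 in sleep-deprived whole brain (arrays 18 to 21), 7.38, 7.25, 7.41 and 6.95 in its controls (arrays 22 to 25), and 6.95, 7.65, 7.76 and 7.35 in the supernatants (arrays 13 to 16). Control pull-down lay below the other extracts, and the sleep-deprived pull-down overlapped with them through array 1. It was lower in undisturbed pull-down than in whole brain at −1.04 ± 0.26 (adjusted p = 0.00104, limma), but read −0.01 after quantile normalization and 0.10 after centring. Sleep deprivation gave −0.18 ± 0.12 in whole brain (adjusted p = 0.611) and 0.23 ± 0.29 in the pull-down.

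**Figure D5:**
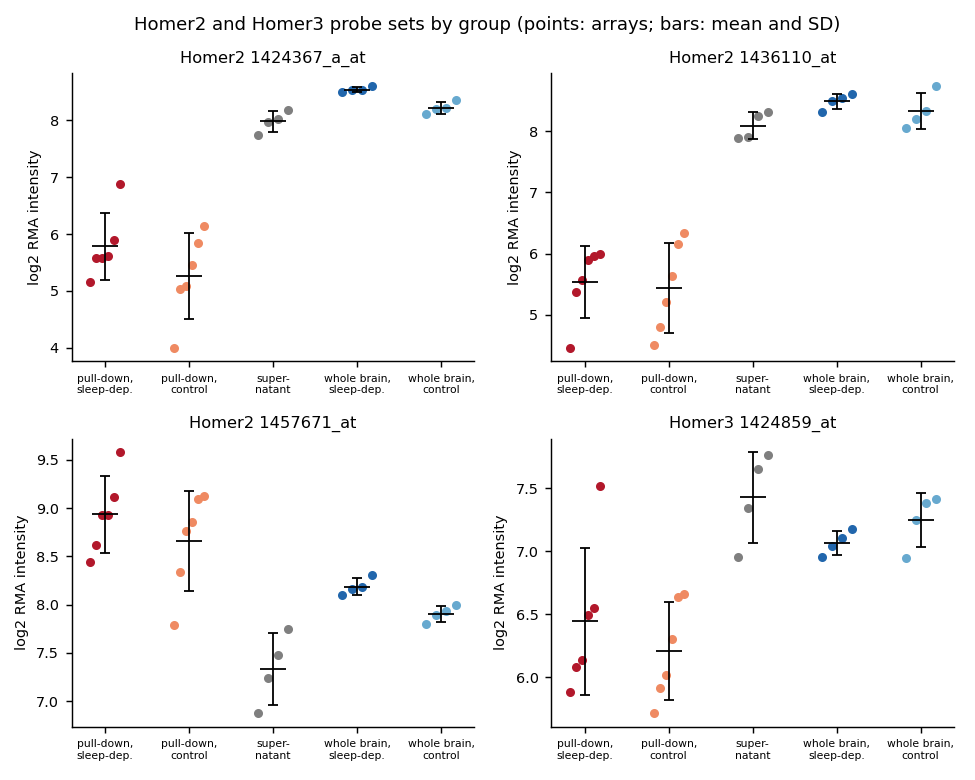
Log2 RMA intensity (vertical axes) of the 3 Homer2 probe sets and the Homer3 probe set in the 5 groups, with 1 point per array and bars for the mean and SD; each panel has its own scale. Homer2 1424367_a_at averages 5.26 in pull-down control and 8.23 in whole-brain control, and 1457671_at 8.66 and 7.91.

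Whether Homer1 responded more than Homer2 or Homer3 was tested within arrays too, over 24 pairs in each of pull-down and whole brain, a test added after the data were seen. No pair passed after adjustment over the 48 tests, and 6 in the pull-down and 7 in whole brain had an exact permutation p under 0.05. Pairs of other genes were not counted, and these pairs share probe sets. In whole brain, 1436387_at shifted against Homer3 1424859_at by 1.03 ± 0.08 and against Homer2 1457671_at by 0.57 ± 0.13, without overlap, at the smallest exact permutation p of 0.0286 (adjusted p = 0.137). In the pull-down its shift against 1457671_at was 0.93 ± 0.19 (exact permutation p = 0.00433, adjusted p = 0.137).

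None of the measured partners of Homer proteins passed the test of sleep deprivation. Of 17 listed ligands and linked scaffold proteins 13 were measured, each by its brightest probe set with 1 symbol. For sleep deprivation in pull-down 0 passed, where 0% of all probe sets did (median −0.05, and −0.05 over all). In whole brain 0 passed, where 0.0466% of all did (median 0.03, and −0.07 over all). With so few passing at all, 0 of 13 does not set these genes apart. In the pull-down the smallest p belonged to Agap2, a GTPase regulator that binds Homer (−0.56 ± 0.36), Dbn1, the actin-binding drebrin (0.64 ± 0.48), and the IP3 receptors Itpr3 (−0.34 ± 0.27) and Itpr2 (−0.24 ± 0.25). In whole brain Ryr1, a ryanodine receptor, differed by 0.24 ± 0.14.

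Between extracts, 9 of the 13 were lower in undisturbed pull-down than in whole brain and 1 was higher (limma), near the shares of all probe sets (66.5% lower and 6.41% higher). The 1 that was higher, the calcium-permeable channel Trpc1, named here after its value was seen, read 0.81 ± 0.22 as deposited, 1.30 after quantile normalization and 1.945 after centring, and passed under all 3. Dlg4, the scaffold PSD-95, was lower at −2.51 ± 0.36, Shank3 at −2.48 ± 0.37, Shank1 at −1.47 ± 0.29 and Dbn1 at −2.77 ± 0.43. After quantile normalization 4 of the 13 were lower and 3 higher, where 9212 of all 45037 probe sets were lower and 10081 higher. After centring 3 were lower and 4 higher, where 6134 of all were lower and 17138 higher. Dlg4 (−1.85 and −1.38), Shank3 (−1.76 and −1.34) and Dbn1 (−1.88 and −1.64) stayed lower under both scalings, whereas Shank1 did not pass (−0.35 and −0.33). Each of these genes was read from 1 probe set, the brightest over the 24 arrays, and the shares of all probe sets are not a like reference. Probe sets of Homer1, and those of Homer2, went opposite ways between these extracts, so 1 probe set does not settle a gene's direction.

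Genes that carry the signal of group I glutamate receptors were listed too. Of 16 listed, 13 were measured. For sleep deprivation 0 passed in either extract, where 0% of all probe sets passed in pull-down and 0.0466% in whole brain. The medians of the 13 were 0.09 and 0.05. The 4 with the smallest p in the pull-down were Plcb3 (−0.31 ± 0.25), Camk2a (0.29 ± 0.29), Plcb1 (−0.20 ± 0.25) and Prkca (0.27 ± 0.39). In undisturbed pull-down against whole brain 6 of 13 were higher and 1 was lower (median 0.49), where 6.41% of all probe sets were higher and 66.5% lower (median −0.80). The higher ones included Gnaq, the G protein of these receptors, at 1.05 ± 0.23, Dgkz, a diacylglycerol kinase, at 1.34 ± 0.29 and the phospholipase Plcb1 at 0.74 ± 0.22. The kinase subunit Camk2b was lower, at −3.54 ± 0.48. These values, too, come from 1 probe set per gene, which does not settle the direction of the gene. It was the brightest over the 24 arrays, of which 12 are pull-down, so a probe set bright in pull-down was favoured. All probe sets were not chosen so, and their shares are therefore not a like reference for these counts. Gnaq, Dgkz, Plcb1 and Camk2b kept their sign and their call under both other scalings. After quantile normalization 8 of the 13 were higher and 1 was lower, where 10081 of all 45037 probe sets were higher and 9212 lower. After centring 12 of the 13 were higher and 1 was lower, where 17138 of all were higher and 6134 lower.

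Other genes that neurons induce with activity rose in whole brain at 3 of 25, all measured: Arc, a regulator of receptor uptake, at 1.22 ± 0.15 (adjusted p = 0.0140), Fos at 1.06 ± 0.12 (0.0115) and the transcription factor Egr2 at 1.12 ± 0.17 (0.0371, limma). The phosphatase Dusp1, at 0.77 ± 0.12, did not pass (adjusted p = 0.0502). In all, 21 of 25 read above 0, with a median of 0.41. Of all probe sets 0.0355% passed as higher, 33.3% read above 0 and the median was −0.07. After quantile normalization and after centring 7 of the 25 passed as higher, where 40 of all 45037 probe sets did under each.

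In the pull-down 23 of the 25 read above 0, against 39.5% of all probe sets. The median of the 25 was 0.57, and 0 of them passed, where 0% of all probe sets did. The smallest p belonged to Ptgs2, the inducible cyclooxygenase (1.35 ± 0.28), Egr2 (1.87 ± 0.41), Egr3 (0.85 ± 0.27) and Nptx2, a synaptic pentraxin (0.79 ± 0.25). Ptgs2 and Homer1 1436387_at were both among the 18 probe sets whose sleep-deprived pull-down arrays lay wholly above the controls. Of these 18, 7 were also apart in this direction in whole brain, where 1.75% of all probe sets were. They were the probe sets of Hspa5, Pfkfb3, Cys1, Lonrf3, Homer1, Creld2 and Gpt2. Hspa5 and Creld2 are chaperone genes of the endoplasmic reticulum. These genes were named after their values were seen. Medians of the 9 lists of cell type markers under sleep deprivation in the pull-down ran from −0.10 to 0.17, with 0 markers called.

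By a fixed rule, the genes most like each Homer1 probe set were those with the highest Pearson r. Over all 24 arrays, 1436387_at was most like Ahsa2 (r = 0.965), Klf9 (0.961) and Adm (0.951), and in the deviations of 20 arrays from their extract's mean most like Hspa5 (0.923), Crh (0.918) and Klf9 (0.904). Klf9 encodes a transcription factor induced by glucocorticoids and Crh the stress peptide corticotropin-releasing hormone. In deviations, 1425671_at was most like Wipf3 (0.940), Gpt2 (0.930) and Per2 (0.921), a clock gene, and 1421768_a_at most like Manf (0.944), Papola (0.936) and Zfp397 (0.922). For 1437363_at they were Trim9 (0.936), Sec62 (0.933) and 9330159F19Rik (0.925), for 1439662_at Rsrp1 (0.942), Srsf1 (0.917) and Trim9 (0.916), and for 1425710_a_at Sptbn1 (0.951), Secisbp2l (0.937) and Phrf1 (0.934). Each r was picked as the highest over all probe sets and is a description of these arrays.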

How the data were processed

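Affymetrix MOE430 2.0 values of 24 arrays were used as the authors deposited them, on the log2 scale, after robust multi-array averaging (RMA) with the affy package per the submitters' processing notes. Whether all extracts were normalized in 1 run was not stated in the sources used here. Of 45101 probe sets, 64 controls were left out. Symbols came from GEO's annotation: 34945 of the 45037 tested had 1 symbol, 932 several and 9160 none. Tests used limma 3.58.1 in R 4.3.3 (lmFit, eBayes, two-sided, Benjamini-Hochberg over 45037 probe sets, threshold 0.05), and were checked on simulated data. Sleep deprivation was tested on the arrays of each extract, the difference of its effects on 20 arrays and extracts in 1 fit of 24 arrays. Differences between probe sets within arrays were tested by exact permutation. Named genes were all Homer probe sets, up to 4 list genes of smallest p per comparison and, per Homer1 probe set, the 3 genes of highest r. The members and lists were chosen with earlier results of these data known. No column pair was identical (highest r = 0.991). Array number limits the precision.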

Additional observations from a re-analysis of the deposited data

Results flagged for a closer look

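Single arrays stood far from the rest of their group at 3 of the 50 groups of Homer values checked, where chance alone does so in about 1 of 20 groups. At Homer1 1425710_a_at, pull-down after sleep deprivation 1 read 8.27 and pull-down control 3 read 7.51, each far above the other 5 arrays of its group. At Homer1 1436387_at, pull-down control 11 read 8.83, far below the other 5. These are the 3 arrays that stood apart in 18S signal or in correlation, and whether that bears on these values was not tested.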

How the results depend on the processing

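Sleep deprivation in whole brain called 2 Homer probe sets, but 0 in 1 fit of 24 arrays, 1 among enriched probe sets and 0 to 2 with 1 array left out. Whole brain against supernatant called 2, but 0 after centring, 5 with array weights, 5 with only the compared groups and 0 to 1 with 1 array left out. Left-out arrays gave 0 to 0 Homer probe sets for sleep deprivation in pull-down, 9 to 10 for pull-down against supernatant and undisturbed whole brain, 8 to 9 after sleep deprivation, 0 to 2 pull-down pairs and 8 to 12 extract pairs. Reversed values were, for sleep deprivation in pull-down, Homer2 1436110_at at −0.39 (weights), −0.10 (without the 3 arrays apart) and −0.089 to 0.32 (1 array left out). For the difference of effects they were 1436387_at at −0.00080 and 1436110_at at 0.044 (quantile), 1457671_at at 0.036 (centred) and 0.035 (without the 2 arrays of most 18S) and 1424367_a_at at −0.042 (weights). With 1 array left out, 1424367_a_at ran from −0.048 to 0.38, 1436110_at from −0.25 to 0.16 and 1457671_at from −0.18 to 0.094. Against undisturbed whole brain, 1425671_at read 0.34 and Homer3 0.10 after centring. After sleep deprivation they read 0.33 and 0.41 (quantile) and 1.11 and 0.55 (centred), and 1425671_at −0.39 to 0.15 with 1 array left out. Against supernatant Homer3 read 0.074 (centred). Whole brain against supernatant ran from −0.24 to 0.13 at 1437363_at and −0.23 to 0.041 at 1439662_at. Within-array pairs reversed by quantile normalization were 1421768_a_at minus 1436387_at in pull-down (0.085), 1425710_a_at minus 1437363_at in whole brain (0.0065), 1421768_a_at minus 1425710_a_at (−0.034) and 1436387_at minus 1439662_at (0.12) by extract, 1437363_at and 1439662_at minus Homer3 in pull-down (−0.0100 and −0.031) and 1437363_at minus Homer2 1436110_at in whole brain (−0.015). Where not shown by the setting itself, the cause was not tested. Over all probe sets, whole-brain calls numbered 21 as deposited, 48 after quantile normalization, 46 after centring, 57 without dim probe sets, 0 in 1 fit and 1 to 16 with 1 array left out. Pull-down calls numbered 0, but 2 with weights and 3 in 1 fit. Calls against undisturbed whole brain were 19293 after quantile normalization and 17069 without dim probe sets, against 32818. No paired analysis was possible because the pull-down groups share only 1 replicate number and the whole-brain groups none. The removal of 2 or 3 arrays together was chosen after seeing the data.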
